A study of Macaca mulatta with 8 samples.

Results

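The genes described here are 10 core genes of the Notch pathway: the receptors NOTCH1, NOTCH2 and NOTCH3, the ligands JAG1, JAG2, DLL1 and DLL4, and the target genes HES1, HES5 and HEY1. They were chosen by name, not by any measured value, and all 10 were present among the 21748 genes of the table. The values are counts of unique molecular identifiers (UMIs, single RNA molecules) in nuclei from frozen rhesus macaque brain. The labels describe 8 samples, 4 from a pool of 2 male control animals and 4 from 1 male animal exposed to sevoflurane, an inhaled anaesthetic. The exposures were given at about 2.5 to 3% for 4 h, 3 times, first at about postnatal day 7 and then at 14 and 28 days, where the labels do not say whether the last pair are ages or intervals. The tissue of each group was mixed and split into its 4 samples, so those samples are not separate animals. The sample annotation names the hippocampus as the tissue and the growth protocol names the amygdala.

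The deposited matrix pools 8 libraries, numbered 1 to 8 by their barcode suffix, and no label ties a library to a sample. The matrix was therefore treated as 1 sample. Sevoflurane and control were not compared, no p-value is given, and the libraries serve only to show spread. Libraries 1 to 4 had median depths of 3189 to 3426 UMIs per nucleus and libraries 5 to 8 of 5730 to 5831. In all, 429 barcode sequences occurred in more than 1 library, on 860 nuclei (1.44%). After filtering, 54644 nuclei remained.

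Notch receptors sit in the membrane of one cell and are switched on by ligands of the Jagged and Delta-like families on a neighbouring cell. Binding exposes the receptor to ADAM proteases and then to the gamma-secretase complex, and the released intracellular part joins the DNA-binding protein RBPJ and a Mastermind-like coactivator to switch on HES and HEY genes, which encode repressors. In the brain the pathway is known for keeping neural stem cells undifferentiated and for its part in glial and oligodendrocyte development. In blood vessels DLL4 and JAG1 on endothelial cells and NOTCH3 on pericytes and smooth muscle are its best known members.

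Nuclei were clustered without the Notch pathway genes and named from marker genes. The 13 named classes are properly astrocyte-like, ependymal-like and so on, and the ending is left out from here. They held 7745 astrocytes, 1164 ependymal cells, 264 endothelial cells, 128 mural cells (pericytes and smooth muscle of vessels), 218 fibroblasts, 3582 oligodendrocyte precursors, 1263 newly formed oligodendrocytes, 5947 oligodendrocytes, 2957 microglia or macrophages, 102 cycling cells, 2077 immature neurons, 20235 excitatory neurons and 7038 inhibitory neurons. A further 1924 nuclei stayed unnamed. In the mural class 8 of 10 mural markers reached 10 CPM (UMIs of a gene per 1000000 UMIs of the class), MYH11 and NDUFA4L2 had no count, and fibroblast markers summed to 5818 CPM beside 2984 CPM for mural markers. Pericytes and smooth muscle were not told apart. Vascular sub-cluster v11, with ACTA2 and MYH11 among its leading genes, stayed unnamed at 18 nuclei and is not in the class. The mural class is the single sub-cluster v0, which carried 7 mural and 6 fibroblast markers above the naming level and a median depth under 1/3 of its libraries'. Endothelial v5, fibroblast v1 and v7 and astrocyte cluster 3 were also under 1/3 (0.267, 0.315, 0.281 and 0.308). Such depth left a cluster unnamed unless a marker of its own class was among its leading genes, as in all of these. In the immature neuron class 7 of 10 markers reached 10 CPM, and NEUROD1 and NHLH1 had no count. The part of such mixture in the values below was not tested.

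Levels are CPM of a class, summed over libraries, with exact 95% intervals that cover counting error only. Each gene is compared with itself across classes, never with another gene. A difference between classes was called when it was 2-fold or more, went the same way in each library that held 50 or more nuclei of both, and left the higher of the pair at 10 CPM or above. A gene counted as measured when either class reached 10 CPM. Classes are listed in the order of their levels, and neighbours in a list are said to stand apart only where both their intervals and their library ranges did. A share of nuclei at equal depth is the share expected after thinning to 1000 UMIs, over nuclei with at least that many. Shallower nuclei were left out of it, namely 314 of 7745 astrocytes, 18 of 264 endothelial cells, 21 of 128 mural cells, 81 of 2077 immature neurons, 420 of 20235 excitatory neurons, 92 of 5947 oligodendrocytes and 14 of 559 nuclei of cluster 31.

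**Figure D1:**
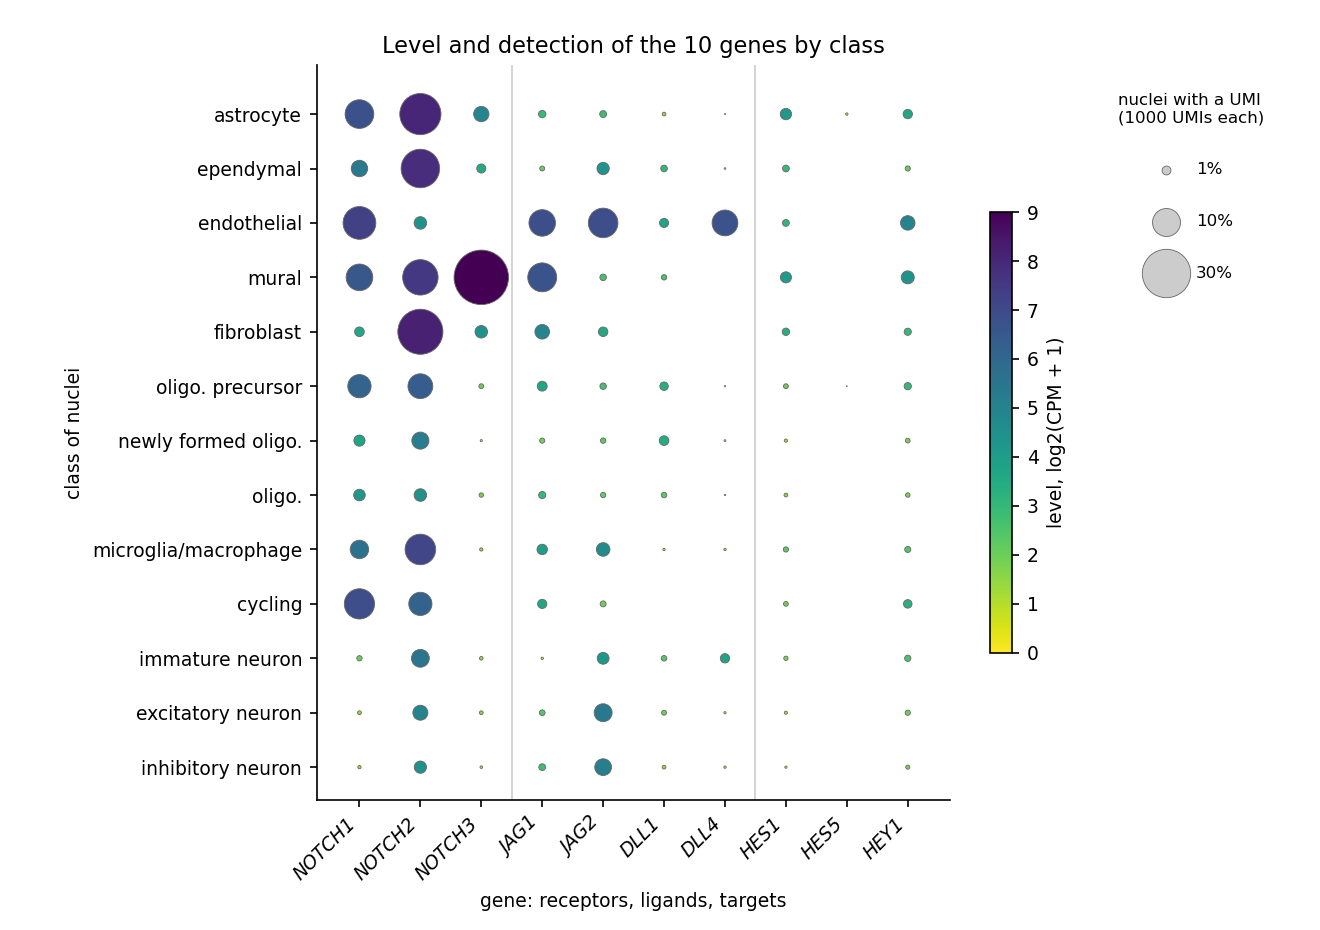
Levels of the 10 genes in the 13 classes, as log2(CPM + 1) in colour; the area of a dot is the expected percent of nuclei with a UMI after thinning to 1000 UMIs, over nuclei with at least 1000 UMIs. Colours are to be read down a column: NOTCH3 is darkest in mural cells (515 CPM), DLL4 in endothelial cells (105 CPM), and JAG2 in endothelial cells followed by both mature neuron classes.

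Among the receptors, NOTCH1, which was the first of the family to be described, was found in glia and vessels and stood near 0 in neurons. In astrocytes its lowest, median and highest library values were 76.0, 119.6 and 131 CPM, and in all neurons together they were 1.03, 1.79 and 2.01 CPM. No library of neurons came near any library of astrocytes. Over all libraries the levels were 107 CPM (95% interval 102 to 112, 1931 UMIs) against 1.63 CPM (1.47 to 1.8, 371 UMIs), a 65.6-fold difference (58.7 to 73.5; log2 6.04). With 5% of the average profile of all nuclei taken off as free RNA the log2 ratio was 6.92. At equal depth 10.5% of astrocytes and 0.183% of excitatory neurons carried a NOTCH1 UMI, where the unthinned shares were 21.1% and 1.44% at median depths of 2124 and 8541 UMIs.

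Endothelial cells had the highest NOTCH1 level, 153 CPM (124 to 186), followed by cycling cells at 116, astrocytes at 107 and mural cells at 93.6 CPM, and the interval of each of these classes met that of the next. Oligodendrocyte precursors came next at 69.0 CPM and stood clear of microglia or macrophages at 47.8 CPM, both in their intervals and in their library ranges. Ependymal cells had 39.0 CPM, oligodendrocytes 17.7, newly formed oligodendrocytes 12.5 and fibroblasts 11.3 CPM. The 3 neuron classes were lowest, from 1.44 to 3.16 CPM, and their intervals met.

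NOTCH2, a close relative of NOTCH1, was spread over more classes. Fibroblasts had 289 CPM (241 to 343), astrocytes 258 (251 to 266), ependymal cells 229 (214 to 244), mural cells 187 (131 to 259) and microglia or macrophages 139 CPM (129 to 149.7). Oligodendrocyte precursors had 83.0 CPM, cycling cells 72.5, immature neurons 44.3, newly formed oligodendrocytes 35.9 and excitatory neurons 30.6 CPM. Oligodendrocytes, inhibitory neurons and endothelial cells were lowest, at 21.2, 21.2 and 20.03 CPM, and could not be ordered by their intervals. Astrocyte libraries ran from 199 to 316 CPM with a median of 242, and neuron libraries from 23.9 to 32.8 CPM with a median of 29.5, with no overlap. The ratio of astrocytes to neurons was 8.87-fold (8.54 to 9.21).

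Among astrocytes the receptors did not run in parallel from library to library. For NOTCH2, libraries 1 to 8 had 275, 263, 316, 295, 199, 209.8, 204 and 221 CPM, so that the 4 highest values were those of libraries 1 to 4. For NOTCH1 the same libraries had 76.0, 95.5, 112, 103, 128, 131, 127 and 129 CPM, and the 4 highest values were those of libraries 5 to 8. NOTCH3 in astrocytes also lay higher in libraries 5 to 8 (31.2 to 44.3 CPM) than in libraries 1 to 4 (22.9 to 27.0 CPM). The astrocytes of libraries 1 to 4 and of libraries 5 to 8 were mostly in different clusters (0 and 34 in the former, 3 in the latter), and the libraries also differ in depth; the part of either was not tested.

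NOTCH3, the receptor of vascular smooth muscle and pericytes, was concentrated in mural cells at 515 CPM (418 to 627, 99 UMIs). The 4 libraries with at least 20 mural nuclei had 301, 482, 748 and 754 CPM. Astrocytes followed at 28.9 CPM (26.5 to 31.5), with library values of 22.9, 29.1 and 44.3 CPM (lowest, median, highest), so the lowest mural library exceeded the highest astrocyte library. Fibroblasts had 20.3, ependymal cells 10.8 and oligodendrocyte precursors 3.04 CPM, and every other class was below 3 CPM. Endothelial cells had no NOTCH3 UMI in 648925 UMIs, which allows a level of up to 4.62 CPM. A UMI of NOTCH3 was seen in 46.1% of mural nuclei and in 0 of 264 endothelial nuclei, at median depths of 1429.5 and 2129.5 UMIs. Thinned to 1000 UMIs, the mural share was 38.0% and the share in oligodendrocytes 0.25%.

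**Figure D2:**
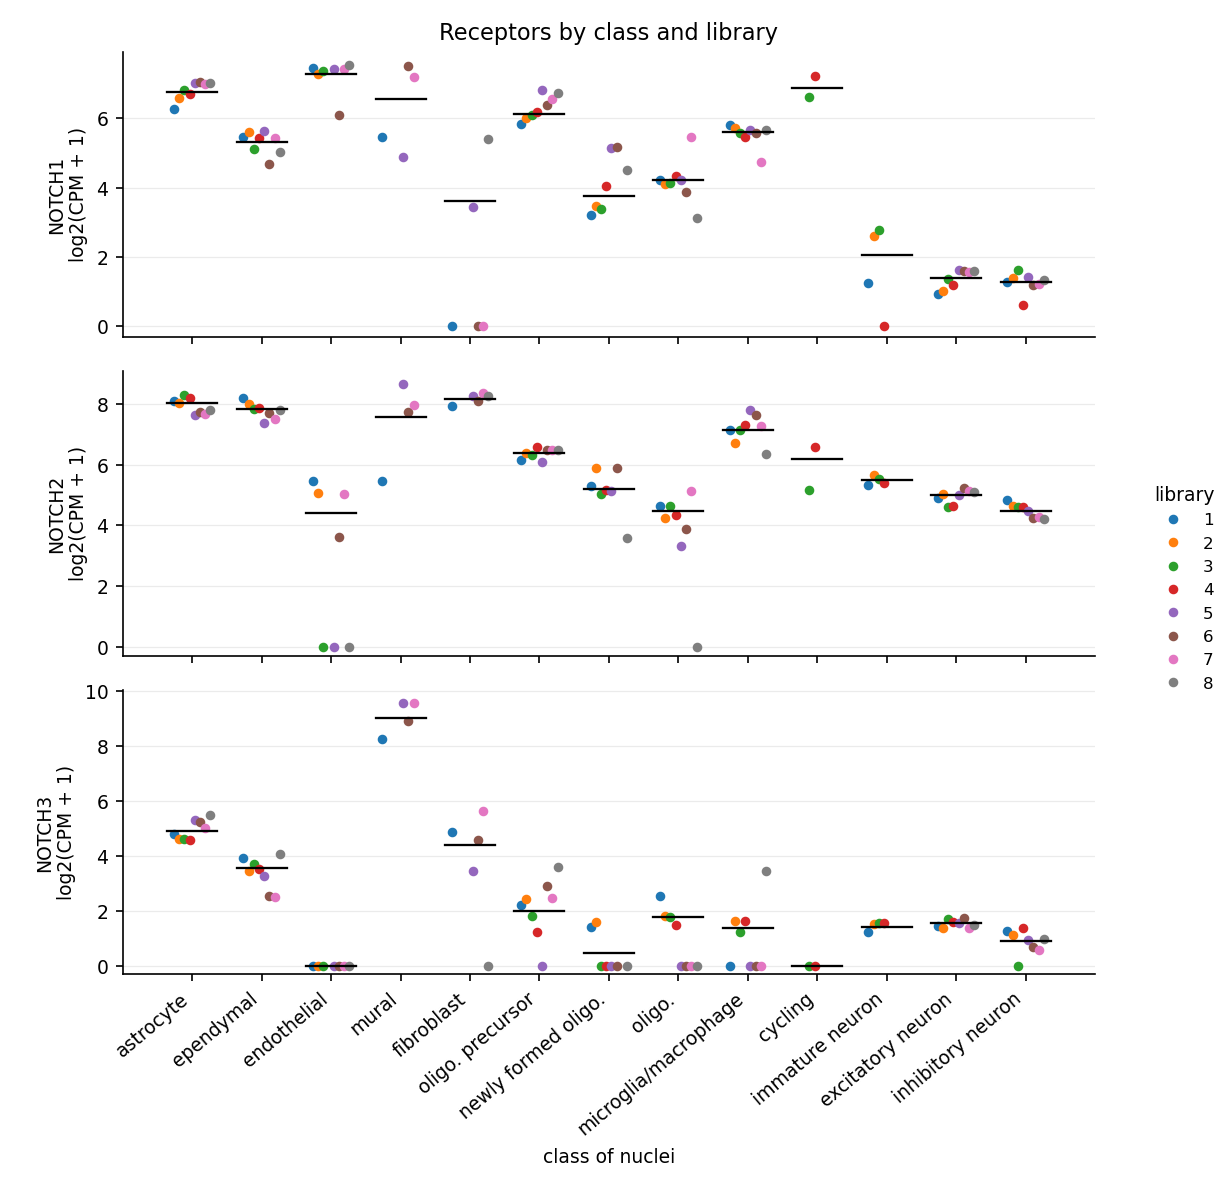
NOTCH1, NOTCH2 and NOTCH3 as log2(CPM + 1) for each class; a point is a library with at least 20 nuclei of the class and the line is the level over all libraries. NOTCH1 separates the neuron classes from astrocytes without overlap, and NOTCH3 lies at 0 in every endothelial library and at 301 CPM or more in every mural library shown.

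Of the ligands, JAG1, a Jagged ligand known in vessels, was highest in endothelial cells at 114 CPM (89.5 to 143, 74 UMIs) and mural cells at 104 CPM (63.5 to 161, 20 UMIs), which did not differ beyond counting error. Among the 7 libraries with at least 20 endothelial nuclei the lowest, median and highest were 70.5, 131 and 159 CPM, and among the 4 with at least 20 mural nuclei they were 57.6, 94.7 and 179.5 CPM. Fibroblasts had 29.3 CPM (15.6 to 50.1); this interval lay below that of mural cells, but the library ranges met. Microglia or macrophages had 14.8, oligodendrocyte precursors 11.7 and cycling cells 11.6 CPM. The remaining classes lay between 0.973 CPM in immature neurons and 6.99 CPM in oligodendrocytes.

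JAG2, the second Jagged ligand, was the one member called higher in neurons than in astrocytes. Endothelial cells were highest at 116 CPM (90.9 to 145, 75 UMIs), and 7 endothelial libraries ran from 67.2 to 164 CPM with a median of 114. Excitatory neurons had 39.7 CPM (38.7 to 40.6, 7188 UMIs) and inhibitory neurons 35.6 CPM (33.9 to 37.5, 1510 UMIs), with library ranges that met. Microglia or macrophages had 24.4, ependymal cells 19.7, immature neurons 17.8 and fibroblasts 11.3 CPM, and all other classes were below 6 CPM. Set against astrocytes at 5.92 CPM (4.86 to 7.16), neurons together had 38.5 CPM, 6.5-fold more (5.37 to 7.94; log2 of astrocytes over neurons -2.70). The lowest neuron library (20.7 CPM) lay above the highest astrocyte library (10.7 CPM).

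Within neurons JAG2 differed between libraries. In excitatory neurons libraries 1 to 8 had 28.9, 28.1, 20.5, 22.3, 53.1, 52.4, 51.1 and 49.1 CPM, and in inhibitory neurons they had 22.4, 20.5, 22.6, 18.9, 45.5, 48.0, 41.2 and 48.2 CPM. In both classes each of libraries 5 to 8 was above each of libraries 1 to 4. DLL1 in excitatory neurons split in the same way, with 3.90 to 4.36 CPM in libraries 5 to 8 and lower values in each of libraries 1 to 4. Of the 519 excitatory DLL1 UMIs, 209 lay in cluster 8, the one excitatory cluster above 10 CPM (11.98 CPM), which held 1 nucleus in each of libraries 1 to 4 and 402 to 483 in each of libraries 5 to 8. Without it libraries 1 to 4 had 0.92 to 1.65 CPM and libraries 5 to 8 had 2.01 to 2.90 CPM. Depth and cluster makeup differ between the same sets of libraries, and their part was not tested. JAG2 reached 10 CPM in 20 of 20 excitatory clusters, from 17.5 to 82.4 CPM, and in 7 of 7 inhibitory clusters, from 22.8 to 48.7 CPM. NOTCH2 reached it in 16 of the 20 excitatory clusters, from 5.87 to 76.1 CPM. A JAG2 UMI was seen in 28.2% of excitatory neurons and 1.36% of astrocytes, at median depths of 8541 and 2124 UMIs, and in 4.11% and 0.608% at equal depth.

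DLL1, a Delta-like ligand known from neural and glial progenitors, was low in every named class. Endothelial cells had 12.3 CPM (5.32 to 24.3) from 8 UMIs, newly formed oligodendrocytes 10.4 CPM (7.82 to 13.6), oligodendrocyte precursors 8.90 CPM (7.14 to 10.97) and ependymal cells 7.43 CPM (4.98 to 10.7), all with intervals that met. Astrocytes had 1.77 CPM and microglia or macrophages 0.6 CPM from 3 UMIs. The highest DLL1 level lay outside the named classes. Cluster 31, which held 559 nuclei, stayed unnamed because immature neuron and astrocyte markers were about level in it, and its leading genes include EGFR, a growth factor receptor known from progenitors. DLL1 there was 58.6 CPM (45.8 to 73.8), and the 4 libraries with at least 50 of its nuclei had 49.6, 37.6, 62.6 and 68.7 CPM. Its nuclei also had NOTCH1 at 91.1, NOTCH2 at 264 and JAG1 at 27.7 CPM, with HES1 at 5.69 and JAG2 at 2.44 CPM. At equal depth 5.88% of its nuclei and 0.176% of astrocytes carried a DLL1 UMI (11.4% and 0.4% unthinned, at median depths of 2104 and 2124 UMIs).

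DLL4, the Delta-like ligand of arterial and sprouting endothelium, reached 10 CPM in endothelial cells and immature neurons. Endothelial cells had 105 CPM (81.4 to 133, 68 UMIs), and the 7 libraries with at least 20 of these nuclei had 51.3, 67.2, 92.2, 97.7, 99.4, 164 and 222 CPM. Immature neurons had 12.4 CPM (9.24 to 16.3, 51 UMIs), with 13.1, 15.3, 9.80 and 5.85 CPM in libraries 1 to 4. No other named class passed 0.8 CPM, and mural cells, fibroblasts and cycling cells had no UMI. The lowest endothelial library lay above the highest immature neuron library, and the lowest immature neuron library lay above the highest library of excitatory neurons (1.01 CPM). Shares of nuclei with a DLL4 UMI were 17.4% in endothelial cells, 2.41% in immature neurons, 0.420% in excitatory neurons and 0.0504% in oligodendrocytes, at median depths of 2129.5, 1853, 8541 and 2810 UMIs. Thinned to 1000 UMIs they were 8.53, 1.12, 0.0636 and 0.0217%.

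**Figure D3:**
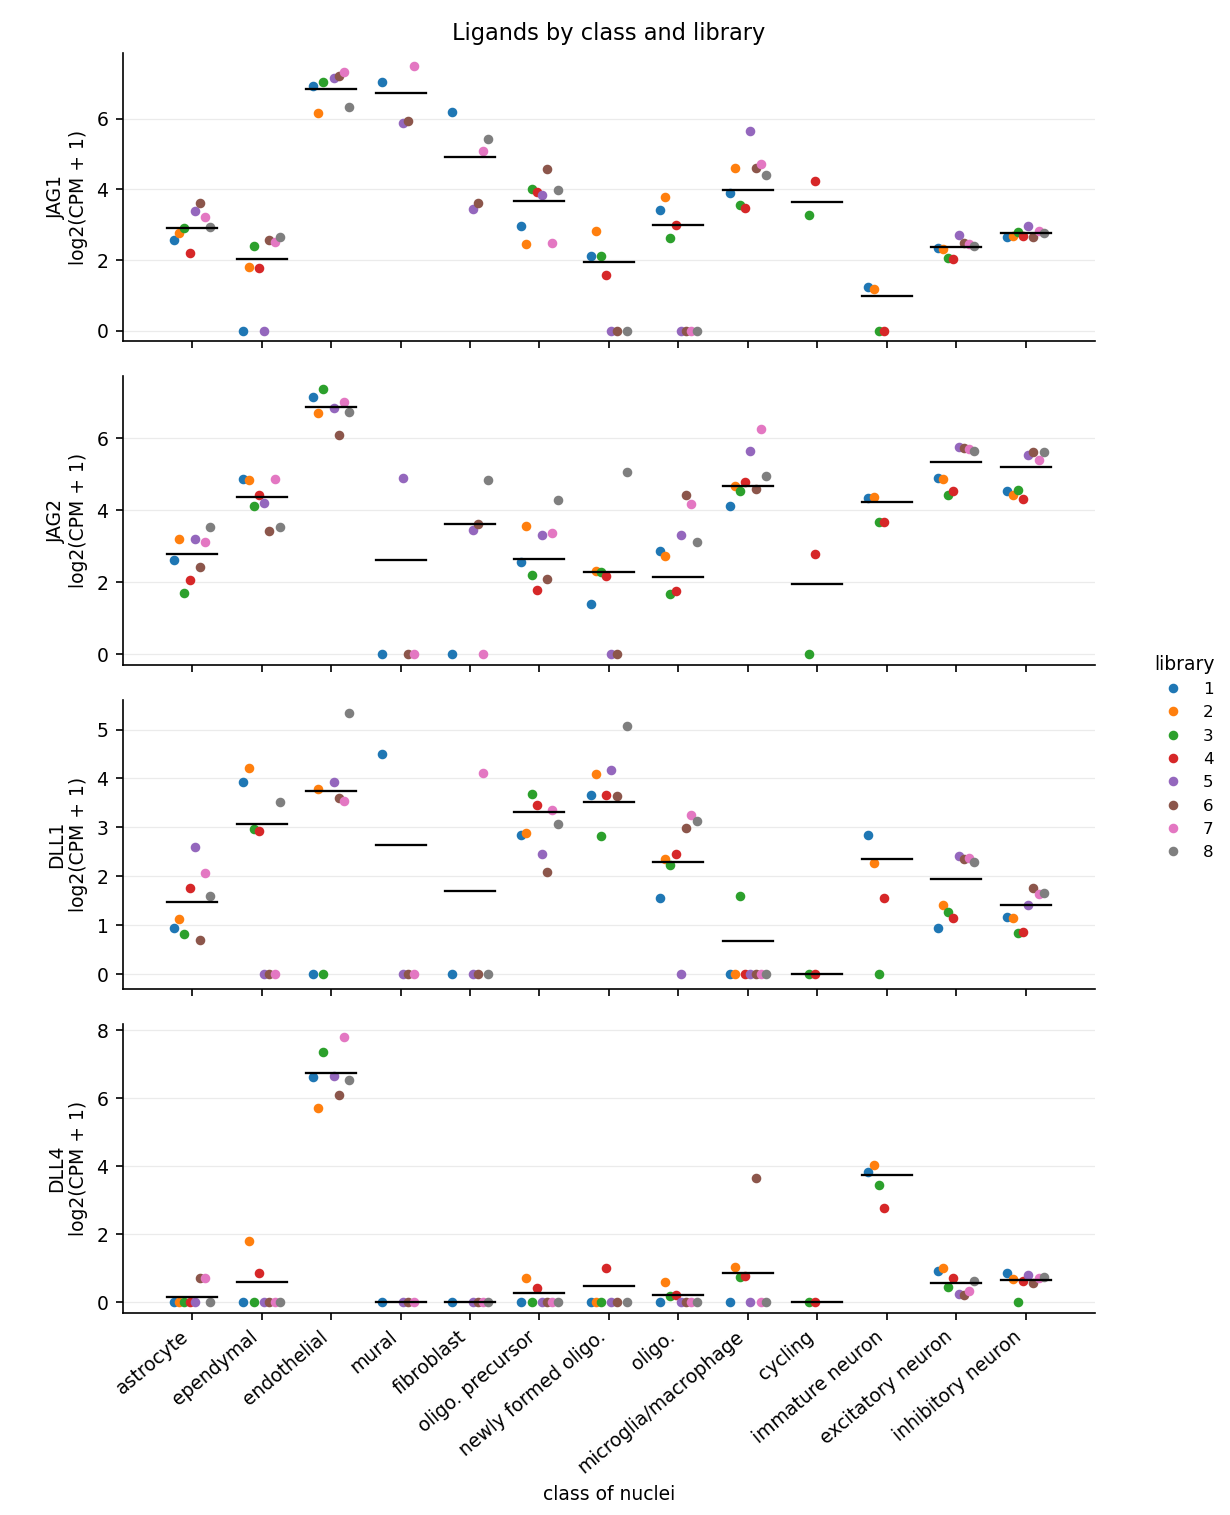
JAG1, JAG2, DLL1 and DLL4 as log2(CPM + 1) for each class; a point is a library with at least 20 nuclei of the class and the line is the level over all libraries. DLL4 stands at 51.3 CPM or more in every endothelial library shown, at 5.85 to 15.3 CPM in immature neurons, and near 0 in nearly all other points; JAG2 lies higher in libraries 5 to 8 than in 1 to 4 in both mature neuron classes.

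Of the target genes, HES1, a repressor switched on by Notch in many tissues, was highest among the named classes in astrocytes. Its level there was 16.9 CPM (15.05 to 18.9, 305 UMIs), with library values of 12.1, 16.6 and 20.96 CPM (lowest, median, highest). The unnamed vascular sub-cluster v2, described below, had more, at 35.6 CPM (23.0 to 52.5, 25 UMIs). Mural cells had 15.6 CPM from 3 UMIs, fibroblasts 9.02 from 4, endothelial cells 7.71 from 5, and ependymal cells 6.92 CPM. Neurons together had 0.922 CPM (library range 0.428 to 1.72), so astrocytes exceeded them 18.3-fold (15.3 to 21.9) with no overlap of libraries. HES5, known as a Notch target of neural stem cells, was barely counted: 18 UMIs in all kept nuclei, of which 14 were in astrocytes (0.775 CPM) and 1 in oligodendrocyte precursors. Of the 14, 13 came from libraries 5 to 8. With counts this low no order of classes can be read for HES5.

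HEY1, the Hairy-related repressor that acts downstream of Notch in vessels and brain, was highest in endothelial cells at 29.3 CPM (17.6 to 45.7, 19 UMIs), with library values of 0, 28.4 and 74.1 CPM (lowest, median, highest of 7). Mural cells had 20.8 CPM from 4 UMIs and astrocytes 11.6 CPM (10.1 to 13.3), and the intervals of these 3 classes met in turn. Astrocyte libraries ran from 8.05 to 14.1 CPM and neuron libraries from 2.14 to 3.92 CPM without overlap, a 4.13-fold difference (3.52 to 4.84). The other classes lay between 2.49 CPM in oligodendrocytes and 8.70 CPM in cycling cells.

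In the comparison of astrocytes with neurons, 6 of the 10 members were measured. NOTCH1, NOTCH2, NOTCH3, HES1 and HEY1 were higher in astrocytes in 8 of 8 libraries and JAG2 was higher in neurons in 8 of 8. Of all 10181 genes measured, 16.6% were called higher in astrocytes and 14.8% higher in neurons. The median log2 ratio of the members measured was 3.6, beside 0.14 over all genes. JAG1, at 6.53 against 4.45 CPM, stayed below 10 CPM in both, as did DLL1, DLL4 and HES5.

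Ependymal cells were set against astrocytes, a glial class with which they share high NOTCH2 (229 and 258 CPM, not called). NOTCH1 was 2.74-fold higher in astrocytes (2.33 to 3.26), NOTCH3 2.69-fold (1.96 to 3.77), HES1 2.44-fold (1.64 to 3.76) and HEY1 3.49-fold (2.00 to 6.66), each in 8 of 8 libraries. Thus 4 of 6 measured members were higher in astrocytes and 0 in ependymal cells, where 9.73% and 12.7% of all genes were. Without library 4 the log2 ratio of HEY1 moved from -1.80 to -2.64. JAG2 was 19.7 CPM in ependymal cells and 5.92 in astrocytes (log2 1.74) but was higher in only 7 of 8 libraries; without library 8 it would be called (log2 1.88).

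Endothelial cells differed from astrocytes in 7 of 9 measured members, 5 higher and 2 lower, where 15.6% and 19.0% of all genes were called. Only 1 library held 50 endothelial nuclei, so the check on direction rests on that library. JAG1 was 17.5-fold higher (12.9 to 23.5), JAG2 19.5-fold (14.3 to 26.4) and HEY1 2.52-fold (1.49 to 4.03). DLL1 was 6.96-fold higher (2.77 to 15.4) from 8 UMIs against 32. DLL4 was 68 UMIs against 2, a ratio of 946 (252 to 7971). NOTCH2 was 12.9-fold lower in endothelial cells (7.53 to 24.2) and NOTCH3 at least 6.25-fold lower, taking 3 UMIs as the floor of the class. NOTCH1, at 153 against 107 CPM, was not called. The DLL1 call ended without library 8 (log2 2.32, under 10 CPM) and the HEY1 call without library 7 (log2 0.87), and in the 7 libraries with at least 20 endothelial nuclei the directions held in 5 for DLL1 and 6 for HEY1. Both calls also ended with doublets kept, where DLL1 had 9.01 CPM (log2 2.247) and HEY1 (log2 1.16) was higher in 1 of 2 libraries. Over all alternatives the DLL1 call held under 20 and ended under 3. The HEY1 call held under 18 and ended under 5, not all of which are named here. The call for NOTCH3 rests on how the sub-cluster v2 is treated, as given with the sub-clusters.

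Mural cells and fibroblasts together were set against endothelial cells. NOTCH2 was 12.9-fold higher in the former (258 against 20.03 CPM; 7.32 to 24.7) and NOTCH3 at least 36.7-fold (169.8 CPM against no UMI). NOTCH1 was 4.22-fold higher in endothelial cells (2.66 to 6.96), JAG1 2.2-fold (1.44 to 3.42), JAG2 12.2-fold (5.37 to 34.4), HEY1 2.66-fold (1.07 to 7.49) and DLL4 at least 22.2-fold. DLL1 was 2 UMIs against 8, and the interval of its ratio (0.782 to 37.9) holds 1. Of 9 measured members 2 were called higher in mural cells and fibroblasts and 6 in endothelial cells, beside 20.1% and 11.8% of all genes. No library held 50 nuclei of both, so the direction was not checked by library there. In the 6 libraries with at least 20 nuclei of both, HEY1 kept its direction in 5 and DLL1 in 4. The JAG1 call ended without library 5 (log2 -0.88) or 6 (-0.90), that of HEY1 without library 7 (-0.76) and that of DLL1 without library 8 (-1.25); without library 1 the ratio of HEY1 was -2.56 and that of DLL1 -2.90, and without library 7 that of DLL1 was -2.79. With doublets kept the calls of JAG1 (log2 -0.62), DLL1 (-2.09) and HEY1 (-1.40) ended, and JAG1 was higher in mural cells and fibroblasts in both libraries that then held 50 nuclei of each.

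The mural and fibroblast classes differed from each other within that sum. NOTCH3 was 515 CPM in mural cells and 20.3 in fibroblasts, and JAG1 104 and 29.3 CPM, whereas NOTCH2 was 187 and 289 CPM with intervals that met. NOTCH1 was 93.6 CPM in mural cells (55.5 to 148) and 11.3 in fibroblasts (3.66 to 26.3). With v0 left unnamed, fibroblasts alone held each of the 8 calls against endothelial cells, but NOTCH3 was then higher by at least 2.13 on the log2 scale and NOTCH1, JAG1 and HEY1 had log2 ratios of -3.76, -1.96 and -2.11.

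The vascular nuclei were clustered again into 13 sub-clusters, of which 4 made up the endothelial class. Sub-cluster v8, with 41 nuclei and VEGFC, FBLN5 and MECOM among its leading genes, had the highest values: DLL4 at 287 CPM (206 to 389), NOTCH1 at 245 (171 to 341), JAG1 at 217 (147 to 308), JAG2 at 161 (102 to 242) and HEY1 at 84.03 CPM (43.4 to 147). Of these, only the DLL4 interval lay clear of those of all other endothelial sub-clusters. For NOTCH1, JAG1, JAG2 and HEY1 it met that of at least 1 of them. Sub-cluster v9, with 38 nuclei and led by IL1R1, had no DLL4 UMI, JAG2 at 23.0 and JAG1 at 122 CPM. Sub-clusters v4 and v5 lay between them for DLL4, at 70.2 and 74.6 CPM. A DLL4 UMI was seen in 53.7% of v8 nuclei and 0 of 38 in v9, at median depths of 3437 and 3164.5 UMIs. Since the sub-clusters were drawn from the expression of the same nuclei, these values are a description. The share of simulated doublets among the nearest neighbours of a nucleus had medians of 0.36 to 0.56 in these 4 sub-clusters and 0.52 in mural cells, beside 0.06 in cluster 31, and its part in the levels was not tested. A median of 0.5 or more left cluster 33 (0.66) unnamed, but that limit was not applied to vascular sub-clusters. The named sub-clusters v5 (0.5), v8 (0.56), v9 (0.52) and v0 (0.52) reach it.

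Sub-cluster v2, of 111 nuclei, carried 9 endothelial and 5 mural markers above the naming level and stayed unnamed. The rule that left it out, at least 5 markers of another vascular type, was not applied between mural cells and fibroblasts, so v0 was named with 6 fibroblast markers. It had NOTCH3 at 208 CPM (175 to 244), DLL4 at 31.3 and HES1 at 35.6 CPM. Counted as endothelial, it turned the direction of NOTCH3 against astrocytes (108 against 28.9 CPM, log2 1.90 in place of at least 6.25-fold lower) and ended the NOTCH3 call of mural cells and fibroblasts against endothelial cells (log2 0.65). The HEY1 calls of both comparisons and the JAG1 call of the latter also ended with it (log2 0.78, -0.86 and -0.88). Mural markers summed to 68.0 CPM in the endothelial class without v2, with KCNJ8, NDUFA4L2 and HIGD1B at 0, and endothelial markers summed to 161 CPM in mural cells beside 9549.6 CPM in endothelial cells.

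**Figure D4:**
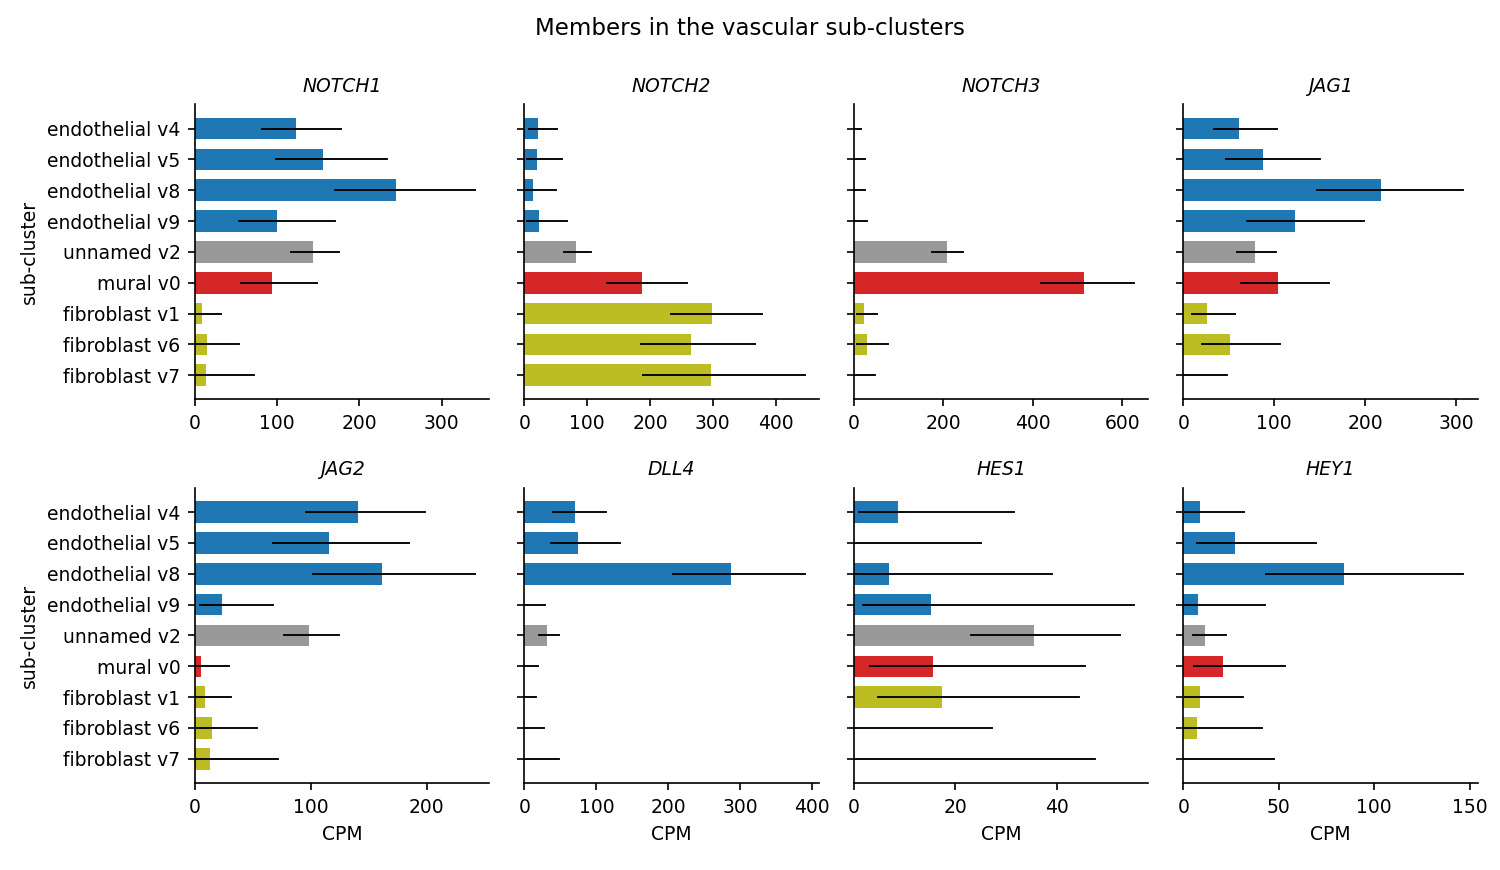
CPM of 8 genes in the named vascular sub-clusters and in v2, with exact 95% intervals for counting error; each panel has its own axis from 0. DLL4 and HEY1 are highest in v8, NOTCH3 is highest in mural v0 (515 CPM) and has no UMI in the 4 endothelial sub-clusters, and v2 holds both NOTCH3 (208 CPM) and DLL4 (31.3 CPM). The HEY1 intervals of v8 and v5 meet.

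In the oligodendrocyte lineage, precursors had less NOTCH2 than astrocytes (83.0 against 258 CPM, 3.11-fold, 2.89 to 3.36), less NOTCH3 (9.52-fold, 6.59 to 14.3) and less HES1 (5.76-fold, 3.93 to 8.74). These were 3 of 6 measured members, with 0 higher in precursors, beside 11.3% and 7.93% of all genes. NOTCH1 was 69.0 against 107 CPM, lower in 8 of 8 libraries but within 2-fold. Set against mature oligodendrocytes, precursors had 3.91-fold more NOTCH1 (3.42 to 4.47; 69.0 against 17.7 CPM) and 3.91-fold more NOTCH2 (3.46 to 4.42; 83.0 against 21.2 CPM), in 8 of 8 libraries each. Of all genes 12.9% were higher in precursors and 8.02% in oligodendrocytes. Newly formed oligodendrocytes lay below precursors for both receptors, at 12.5 CPM for NOTCH1 and 35.9 for NOTCH2.

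Immature neurons differed from excitatory neurons in DLL4 and JAG2. DLL4 was 25.6-fold higher (17.7 to 36.5; log2 4.68, and 3.94 with libraries weighted equally) and JAG2 2.23-fold lower (1.77 to 2.85) in immature neurons, in each of the 4 libraries with at least 50 of their nuclei. The JAG2 call ended when libraries were weighted equally (log2 -0.67), and excitatory JAG2 lay between 20.5 and 28.9 CPM in those 4 libraries beside 11.7 to 19.8 CPM in immature neurons, without overlap. NOTCH2, at 44.3 against 30.6 CPM, was not called. Of 10101 genes measured, 17.8% (1800 genes) were higher in immature neurons and 9.78% (988 genes) higher in excitatory neurons; with TMM scaling these became 1015 and 1616 genes, and both member calls held. Inhibitory and excitatory neurons did not differ in any member by the call rule, with NOTCH2 at 21.2 and 30.6 CPM and JAG2 at 35.6 and 39.7 CPM, where 6.32% and 6.17% of all genes were called.

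**Figure D5:**
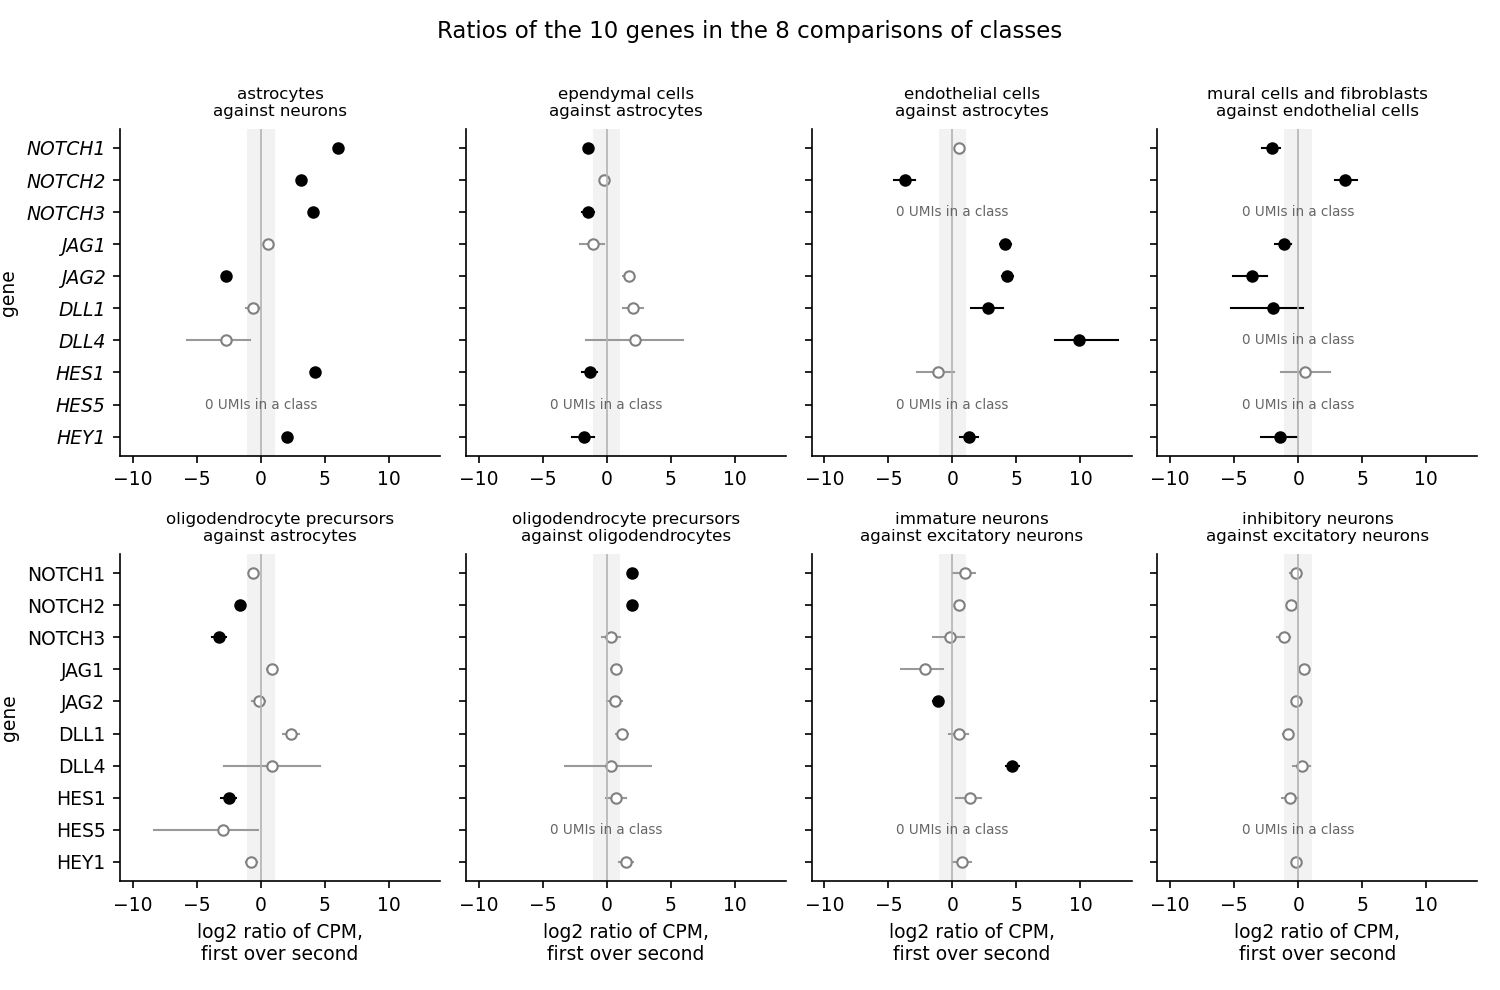
Log2 ratio of CPM, first class over second, for the 10 genes in the 8 comparisons, with exact 95% intervals for counting error; filled points were called, open points were not, the grey band marks less than 2-fold, and a note stands where a class had no UMI. The astrocyte and neuron panel shows NOTCH1 farthest right (6.04) and JAG2 to the left (-2.70), and the inhibitory and excitatory panel has no filled point.

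The pathway has further genes, of which 45 outside the members were in the table: another receptor and more ligands, the Fringe and other sugar transferases that modify receptors, the cleavage enzymes, ubiquitin ligases and adaptors, the nuclear complex and more targets. Between astrocytes and neurons 34 of the 45 were measured, 4 were higher in astrocytes and 4 in neurons, neither above the 16.6% and 14.8% of all genes, and their median log2 ratio was 0.23 beside 0.14 over all genes. The target HEY2 was 14.6 against 0.211 CPM (log2 6.11) and the Fringe enzyme LFNG 79.6 against 1.2 CPM (log2 6.05). NEURL1, a ubiquitin ligase of ligands, was 13.5 against 118 CPM (log2 -3.14), and MAML3, a Mastermind-like coactivator, 55.8 against 178 CPM (log2 -1.67). The 7 measured genes of receptor cleavage had 0 calls in this comparison. LFNG was also lower in ependymal cells than in astrocytes, at 4.10 against 79.6 CPM (log2 -4.28); there 35 genes were measured, 1 was higher in ependymal cells and 3 in astrocytes, beside 12.7% and 9.73% of all genes.

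Of 35 pathway genes measured between endothelial cells and astrocytes, 6 were higher in endothelial cells and 7 in astrocytes, beside 15.6% and 19.0% of all genes. NOTCH4, a receptor known from endothelium, was 162 CPM (132 to 196) in endothelial cells and 1.66 CPM in astrocytes (log2 6.61). The Fringe enzyme MFNG was 66.3 against 0.221 CPM (log2 8.22) and DTX4, a Deltex-family ubiquitin ligase, 219 against 14.4 CPM (log2 3.93). In the other direction DTX1, another Deltex-family gene, was 3.08 against 66.6 CPM (log2 -4.43), DNER, a ligand-like membrane protein, 40.1 against 142 CPM (log2 -1.82), and the coactivator MAML2 448 against 1461 CPM (log2 -1.70). In mural cells and fibroblasts 9 of 38 were higher than in endothelial cells and 5 lower, beside 20.1% and 11.8% of all genes, among them NOTCH4 at 1.57 CPM (log2 -6.68). HEY2 in mural cells was 156 CPM (105 to 223), its highest level, beside 26.2 in endothelial and 26.7 in ependymal cells.

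In precursors against astrocytes 4 of 34 pathway genes were higher and 3 lower, beside 7.93% and 11.3% of all genes. DLL3, a ligand thought to act inside the cell that carries it, was 18.3 against 0.609 CPM (log2 4.91), and it was 28.5 CPM in cluster 31. Precursors against oligodendrocytes gave 3 higher and 2 lower of 30, beside 12.9% and 8.02%. Immature against excitatory neurons gave 4 higher and 4 lower of 32, beside 17.8% and 9.78%, and inhibitory against excitatory 2 and 3 of 32, beside 6.32% and 6.17%.

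Of 8 stem cell and radial glia genes in the table, 7 were measured between astrocytes and neurons and 7 were higher in astrocytes (16.6% of all genes), for example TNC at 908 against 13.7 CPM and PAX6 at 85.4 against 3.42 CPM. Between immature and excitatory neurons 6 of 7 were higher in immature neurons (17.8% of all genes), led by PAX6 (log2 3.77), and also 6 of 7 with TMM scaling. None of the 5 proneural factors, which Notch targets are known to repress, reached 10 CPM in any of the 8 comparisons.

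Genes whose levels followed a member most closely over the 13 classes were listed by Pearson's r of log2(CPM + 1), a description over classes that share libraries and differ in depth. A gene entered if it reached 10 CPM in any class, so genes of 1 small class rest on few UMIs. DLL4 was followed by MEOX2 (r 0.988), SLC39A10 (0.919) and CYYR1 (0.910), and NOTCH3 by THAP3 (0.953), SELENBP1 (0.929) and PDGFRB (0.926). The highest levels of THAP3 and SELENBP1 were 52.0 and 10.4 CPM, in the mural class of 192340 UMIs. PDGFRB is a marker used to name that class. NOTCH1 was followed by PDLIM5 (0.944) and NOTCH2 by QPRT (0.903). JAG2 was followed by STX3 (0.919), DLL1 by CATSPERE (0.832), HES1 by LAMB2 (0.939) and HEY1 by EPAS1 (0.943). Among the members themselves the closest pairs were HEY1 with JAG1 (0.80) and HES1 with HEY1 (0.76).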

How the data were processed

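Nuclei were profiled with the 10x 3' v3 chemistry, per the labels' protocols. Per the submitters' processing notes, CASAVA 1.8, Seurat and Cell Ranger were used, with no role stated, and per the file headers the version of Cell Ranger was 3.1.0. For the annotation and its build nothing was found (not given in the sources used here); sequences and coordinates are not printed. The authors deposited raw UMI counts of 21748 genes in 59749 nuclei, 331133661 UMIs in all, with 35806547 to 47007082 per library. CPM were computed here from the sums of each class.

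A minimum of 500 UMIs and 300 genes left 58220 nuclei, and 3576 likely doublets, called against simulated doublets, were removed. Clustering used 2000 variable genes without the pathway genes, 30 principal components, 20 neighbours and Leiden resolution 1.0 (leidenalg 0.10.2), giving 45 clusters, and 3 vascular clusters were clustered again. Classes were named from 152 markers of 17 cell types, of which 144 were in the matrix. A low-depth cluster's leading genes were taken against nuclei of its own libraries. The members, markers and gene lists were chosen with earlier results of these data known, and the scoring of classes was settled after the data were seen. All members were named; of the other pathway genes, those named come from the called genes of largest fold (up to 4 in each direction) or were chosen after their values were seen (HEY2 in mural cells and DLL3 in cluster 31). The genes of closest pattern are the 3 with the highest Pearson correlation among genes that reach 10 CPM, of which the text gives some; a few genes that these rules would name are not reported here.

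The matrix maps no nucleus to a sample, so no test was run. Levels carry exact Poisson intervals, ratios exact conditional binomial intervals and shares of nuclei exact Clopper-Pearson intervals (scipy 1.17.1). For a class with no UMI, 3 UMIs were taken as the floor. The alternatives were TMM scaling (edgeR 4.0.16), 5 CPM or no minimum, other clustering resolutions, at least 1000 genes per nucleus, doublets kept, sub-cluster v0 left unnamed, free RNA taken off, libraries weighted equally and each library left out. The calling of ratios was tested on simulated data, and the outcome is not given here.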

Additional observations from a re-analysis of the deposited data

Results flagged for a closer look

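In 41 sets of library values (a member in a class or comparison), 4 had 1 library standing apart from the others by Dixon's criterion, which chance gives in about 1 in 20 sets. NOTCH1 had a log2 ratio of astrocytes over neurons of 6.52 in library 4, the highest of 8, where the others lay between 5.99 and 6.2. NOTCH1 in oligodendrocytes was 42.9 CPM in library 7, with the others between 7.79 and 19.2 CPM. NOTCH1 in microglia or macrophages was lowest in library 7, at 25.5 CPM, with the other 6 of 7 libraries between 43.1 and 55.0 CPM. JAG1 in microglia or macrophages was highest in library 5, at 49.6 CPM, with the others between 10.1 and 25.5 CPM. In library 4 astrocyte cluster 0 alone held 902 nuclei. The flagged values of oligodendrocytes and of microglia or macrophages, by contrast, rest on few nuclei. Microglia or macrophages numbered 56 in library 7 and 57 in library 5, beside 869 in library 3. Oligodendrocyte clusters 1 and 5 held 46 and 18 nuclei in library 7, beside 1289 and 898 in library 3. Dixon's criterion takes no account of counting error, whose part was not tested.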

How the results depend on the processing

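No paired analysis was possible because the libraries carry no sample identity or replicate number. Of 32 member calls, 24 held under each of the 17 planned and 6 added alternatives that gave a value (the added ones were chosen after seeing the data), and 8 ended under at least 1. Ependymal cells had 1 member higher than astrocytes (JAG2) without astrocyte cluster 3, and 0 to 1 with each library left out. Endothelial cells had 3 members higher than astrocytes, not 5, with doublets kept or with the direction taken from libraries of at least 20 nuclei (DLL1 and HEY1 ended in each), and astrocytes 1, not 2, with sub-cluster v2 counted as endothelial, where NOTCH3 reversed to a log2 of 1.90. Mural cells and fibroblasts against endothelial cells gave 5 calls, not 8, with doublets kept (JAG1, DLL1 and HEY1 ended), 3 of them higher in endothelial cells, and 1 member higher in mural cells and fibroblasts with v2 counted. Immature against excitatory neurons gave 1 call with libraries weighted equally, 0 of them higher in excitatory neurons, and 2 higher in excitatory neurons with no minimum CPM. Inhibitory against excitatory neurons gave 1 call with no minimum CPM, 1 higher in excitatory neurons. The cause was not tested where the alternative's own construction does not show it. With each library left out, the calls numbered 6 to 8 for endothelial cells against astrocytes and 7 to 9 for mural cells and fibroblasts. Weighting libraries equally gave no value for that last comparison. Member levels of at least 10 CPM numbered 49, and 40 to 51 over the alternatives. TMM scaling moved the median log2 ratio of all genes by -0.13 for astrocytes against neurons, -0.10 for endothelial cells against astrocytes, -0.17 for mural cells and fibroblasts, -0.13 for precursors against oligodendrocytes and -0.33 for immature neurons, and ended no member call. Depth limits the small classes: mural cells rest on 192340 UMIs, cycling cells on 344875, fibroblasts on 443554 and endothelial cells on 648925, so that levels of a few UMIs there cannot be ordered.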
